A study of Mus musculus with 4 samples.

Results

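Genes of pulmonary surfactant and genes grouped with the lamellar body were followed across the cell types of the mouse lung. They were the 4 surfactant proteins Sftpa1, Sftpb, Sftpc and Sftpd and 6 further genes, Abca3, Lamp3, Slc34a2, Napsa, Lpcat1 and Ctsh. These 6 were grouped with the lamellar body, the organelle that stores and secretes surfactant. Where in the cell their proteins lie was not measured. All 10 were found by symbol among the 31055 features of the count matrix. Surfactant is a film of phospholipid and protein that lowers surface tension in the air space. Alveolar type 2 cells make it, pack it into lamellar bodies, which are organelles related to lysosomes, and take much of it up again. SP-B and SP-C are small hydrophobic proteins cut from larger precursors in this pathway, whereas SP-A and SP-D are soluble collectins that bind microbes. Airway club cells are known to make SP-A, SP-B and SP-D as well, while SP-C serves as the usual marker of the alveolar type 2 cell.

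Cells negative for CD45 (a leukocyte marker) and CD31 (an endothelial marker) were sorted from lungs of mice with 1 Gli1_Cre_ERT2 allele and 1 Rosa_mTmG allele, aged about 8 weeks and given tamoxifen, and profiled with droplet 3′ RNA sequencing. In these mice a Gli1-driven, tamoxifen-dependent Cre switches the membrane reporter from red to green, so every cell carried both alleles and no untreated or Cre-negative group was in the series. The strain is C57BL/6J in one field of the labels and B6D2F1/J in others, and the kit is given as v3 and as v3.1. Identical labels put the 4 samples in 1 group, all 11118 barcodes carry the same suffix, and the cells could not be assigned to samples. They were therefore 1 pooled sample, nothing was tested between samples, and every interval below is a 95% interval for counting error only.

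After filtering, 8933 cells with 699 to 77372 UMIs each (unique molecular identifiers, that is, counted RNA molecules; median 7967) fell into 22 clusters, 18 of them assigned to 10 classes by marker genes. The members and all related genes described here were kept out of the clustering and of the naming markers. The alveolar type 2-like (AT2-like) class held 1655 cells. Its 11 naming markers, none of them members, summed there to 42771 CPM (UMI counts scaled to the same total in every class). The class was named by these markers, and all 11 had UMIs in every other named class too, so their presence does not test the name. The other epithelial classes were alveolar type 1-like (AT1-like, 209 cells, with Hopx and Ager among the leading genes), club or secretory-like (72 cells, called club-like here, with Scgb1a1, Scgb3a2, Bpifa1 and Muc5b) and ciliated-like (238 cells, with Tmem212 and Ccdc153), and 6457 cells were mesenchymal-like. A further 66 cells were endothelial-like although the sort was against CD31, and 4 clusters with 236 cells were left unnamed because genes of another type, of cell division or of striated muscle led them. UMI counts from 3′ ends do not grow with transcript length, so levels are compared between genes as CPM.

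In AT2-like cells the surfactant proteins were among the most abundant transcripts of all. Sftpc (chr14:70520949-70524081, minus strand, mm10), which encodes SP-C, ranked first of 16299 genes with a UMI and stood at 191565 CPM (191351 to 191779), or 19.2% of all UMIs of these cells. Sftpa1, which encodes the collectin SP-A, ranked 3rd at 18736 CPM (18669 to 18803), and Sftpb (chr6:72304610-72314371, plus strand), which encodes SP-B, ranked 7th at 9959 CPM (9910.2 to 10008). Sftpd, the gene of the collectin SP-D, was lower at 3469.7 CPM and ranked 19th. The 10 members together made up 23.6% of the UMIs of AT2-like cells, against 1.07% in the other epithelial-like cells and 0.103% in mesenchymal-like cells.

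The members other than the surfactant proteins were lower than Sftpc, Sftpa1 and Sftpb. Slc34a2 (chr5:53038081-53071664, plus strand), a sodium-dependent phosphate transporter, reached 4859.6 CPM and ranked 13th. Napsa (chr7:44572380-44586862, plus strand), the aspartic protease napsin A that takes part in cutting proSP-B, was at 2309 CPM, and Ctsh (chr9:90054152-90076089, plus strand), the cysteine protease cathepsin H, which also takes part in that processing, was at 938 CPM. Lamp3 (chr16:19653378-19706375, minus strand), a membrane protein of the lamellar body, was at 1614 CPM, and Lpcat1 (chr13:73467197-73516422, plus strand), which makes the disaturated phosphatidylcholine of surfactant, was at 1549 CPM. Abca3 (chr17:24351950-24410201, plus strand), the lipid pump of the lamellar body membrane, was the lowest member at 936 CPM and ranked 117th. At least 98.5% of AT2-like cells had a UMI of each member. In GENCODE M21, Abca3 overlaps 2 genes on the opposite strand and Slc34a2 and Napsa overlap 1 each, and whether the counting used strand is not given in the sources used here.

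**Figure D1:**
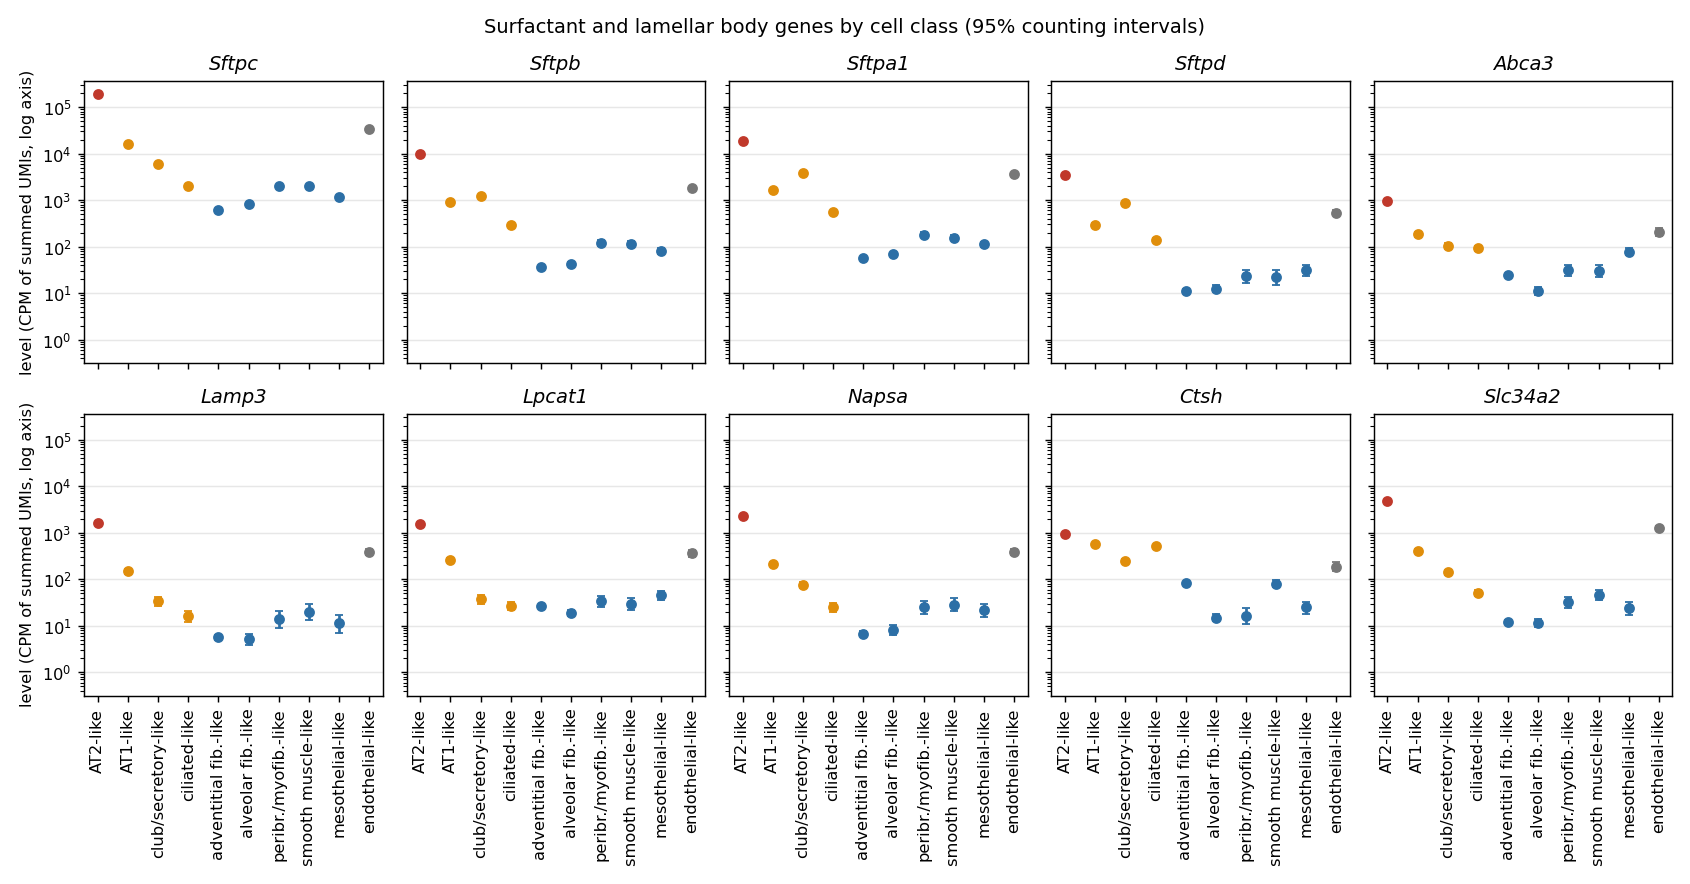
Level of each member in every named class, in CPM of the summed UMIs on a log axis, with 95% counting intervals; red is AT2-like, orange the other epithelial-like classes, blue the mesenchymal-like classes and grey the endothelial-like class. Every member is highest in AT2-like cells, and Ctsh, at 938 CPM there and 562 CPM in AT1-like cells, shows the smallest drop.

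All 10 members were higher in AT2-like cells than in any other named class, as were 6.71% of all genes tested. All 10 were also at least 2-fold higher than in the other epithelial-like cells combined (11.3% of all genes) and at least 2-fold higher than in mesenchymal-like cells (14.7% of all genes). The members were known from earlier work as AT2 genes, so these counts describe the class rather than test it. The ratio of AT2-like to other epithelial-like cells had a median of 15.6 over the members and 0.870 over all genes. Lamp3 (29.5), Slc34a2 (28.7), Sftpc (28.5) and Napsa (26.6) had the largest ratios, and Lpcat1 (17.4) and Sftpb (13.7) followed. The ratios of Sftpa1 (10.1), Sftpd (8.65) and Abca3 (7.95) were lower. Ctsh stood apart at 2.12 (2.04 to 2.2), and its ratio fell to 1.81 when each cell was given equal weight.

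Against mesenchymal-like cells the median ratio was 250.3 over the members and 0.764 over all genes. Here 7 members lay close together, between 224 for Sftpb and 349 for Slc34a2. Lpcat1 (58.8), Abca3 (39.0) and Ctsh (14.7) were the exceptions. With predicted doublets kept, these 7 ratios fell to between 94.1 (Sftpb) and 122 (Slc34a2), and without the 24 mesenchymal-like cells highest in Sftpc they rose to between 309.6 and 552. AT2-like cells held 92.0% of the Sftpc UMIs of all kept cells and 92.5% of the Slc34a2 UMIs, but 83.5% for Abca3 and 66.1% for Ctsh.

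Upstream sequence from RefSeq (GRCm38.p6, the assembly of mm10) was matched by symbol for 6 members, namely Sftpa1, Sftpb, Abca3, Lamp3, Slc34a2 and Lpcat1. Sftpa1, Sftpb and Lpcat1 are shown because their levels outside AT2-like cells differed most in kind: Sftpa1 and Sftpb were found again in club-like cells, and Lpcat1 in AT1-like cells and fibroblasts. Each stretch ends before the GENCODE start of the gene and reads 5′ to 3′ on the plus strand. It covers chr14:41131538-41131781 for Sftpa1, chr6:72304360-72304609 for Sftpb and chr13:73466981-73467196 for Lpcat1. Capitals mark matches to CTCAAG (a core of the site of NKX2-1, the lung epithelial regulator), TATAAA (the TATA box) or GGGCGG (the GC box), searched on either strand. The forkhead-type core TGTTTAC, the letters AGATAA and the letters CCAAT were searched too and had no match in these 3 stretches, and no matches overlapped.
Sftpa1: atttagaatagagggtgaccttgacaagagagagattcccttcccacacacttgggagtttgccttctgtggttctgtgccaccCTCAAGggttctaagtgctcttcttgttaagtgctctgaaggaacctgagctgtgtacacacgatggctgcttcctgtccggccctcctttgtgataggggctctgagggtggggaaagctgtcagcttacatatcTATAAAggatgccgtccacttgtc
Sftpb: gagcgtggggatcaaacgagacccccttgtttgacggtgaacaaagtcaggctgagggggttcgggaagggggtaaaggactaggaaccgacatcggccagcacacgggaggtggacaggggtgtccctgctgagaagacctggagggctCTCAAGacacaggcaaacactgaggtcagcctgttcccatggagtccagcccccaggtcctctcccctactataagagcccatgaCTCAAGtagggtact
Lpcat1: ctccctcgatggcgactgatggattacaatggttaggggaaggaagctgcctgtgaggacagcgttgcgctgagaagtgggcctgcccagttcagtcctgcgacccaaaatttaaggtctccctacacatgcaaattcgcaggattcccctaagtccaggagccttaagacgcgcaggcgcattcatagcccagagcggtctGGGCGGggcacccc
The Sftpa1 stretch held CTCAAG 166 bases and TATAAA 30 bases before the RefSeq start site, and the Sftpb stretch held CTCAAG 100 and 15 bases before its own. The RefSeq starts of Sftpa1 and Lpcat1 lie downstream of their GENCODE starts, so these distances are longer than those to the end of the printed stretch. Of 32851 upstream windows of 250 bases, 13.3% held CTCAAG, 12.4% TATAAA, 32.7% GGGCGG, 3.17% TGTTTAC, 9.99% AGATAA and 33.8% CCAAT. Among the other members, Abca3 held GGGCGG, Lamp3 TGTTTAC and Slc34a2 none of the 6. The Slc34a2 window (chr5:53049103-53049352) precedes a RefSeq start inside the GENCODE gene, which begins at 53038081. It therefore does not describe the sequence before the GENCODE start of Slc34a2. Lpcat1 had GGGCGG 48 and 13 bases before its RefSeq start, the second beyond the printed stretch, and 16 CG dinucleotides in its full 250 bases. Sftpa1 had 3 and Sftpb 7, against a median of 6 over all windows. Slc34a2, one of the members most restricted to AT2-like cells, had 28 in its window inside the gene, while Abca3 had 21 and Lamp3 0. These are matches of letters and were not tested as binding sites.

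**Figure D2:**
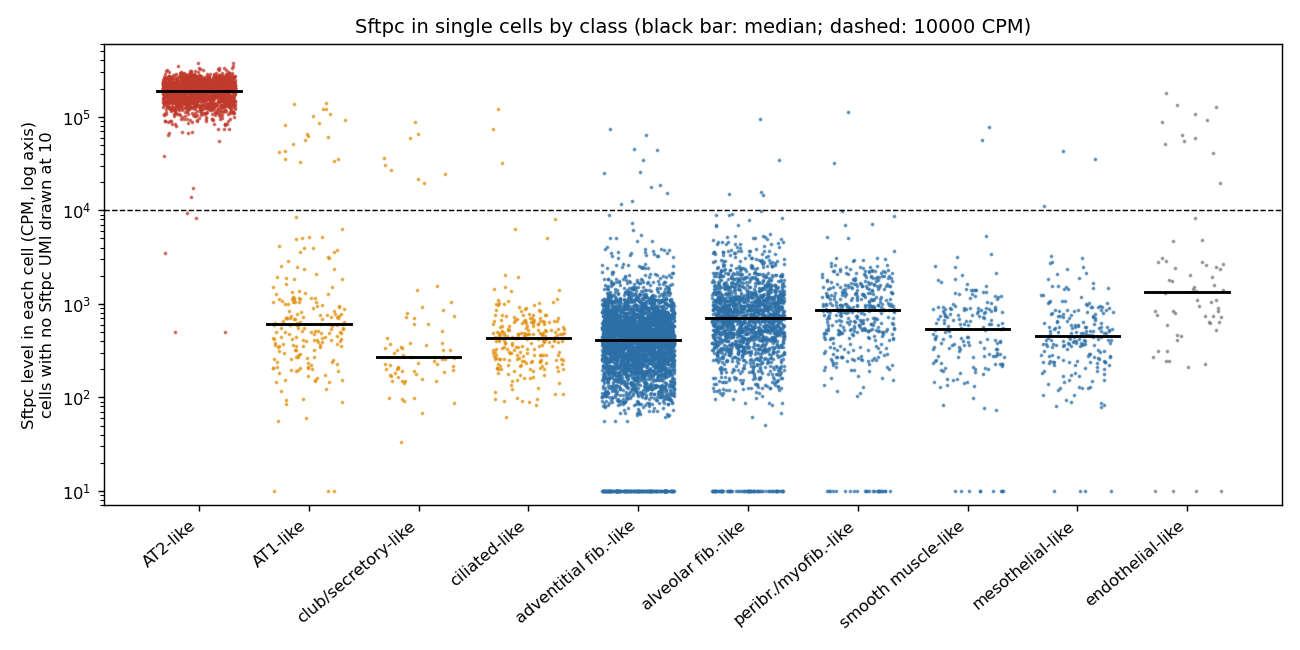
Sftpc level in each cell by class, in CPM on a log axis; black bars are medians, cells with no Sftpc UMI are drawn at 10, and the dashed line marks 10000 CPM. AT2-like cells form a band around 190060 CPM, and in the other classes a few cells lie above the line and the bulk lies far below it.

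Single AT2-like cells had a narrow range of Sftpc. The median cell was at 190060 CPM, the 5th percentile at 110599 CPM and the 95th at 270713 CPM, and 1605 of 1655 cells were at 100000 CPM or more. Every other class held a few cells with much Sftpc and a majority with little. To describe both, a line was drawn at 10000 CPM after the values were seen. In the mesenchymal-like cells 29 cells lay between 5000 and 10000 CPM and 9 between 10000 and 20000 CPM. In the AT1-like class 5 cells lay in the lower and 0 in the upper of these ranges. In the club-like class 0 and 1 cells did, and in the ciliated-like class 3 and 0.

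The mean level of the AT1-like, club-like and endothelial-like classes rested on few cells. In the AT1-like class Sftpc averaged 16124 CPM, but 20 of 209 cells held 97.1% of its UMIs. These 20 cells had a median of 20869 UMIs, against 7491 in the other 189. Their members stood at 36.2% to 40.8% of the AT2-like level for Sftpa1, Sftpb, Sftpc, Sftpd, Lamp3, Slc34a2 and Napsa, and at 53.0% for Lpcat1, 55.2% for Abca3 and 68.2% for Ctsh. The 11 AT2 naming markers were all detected in the AT1-like class and summed to 8.47% of their AT2-like level, close to the 8.42% of Sftpc. In the club-like class 9 of 72 cells held 95.6% of the Sftpc UMIs, and in the endothelial-like class 12 of 66 cells held 98.6%. Without those 12 cells Sftpc in the endothelial-like class fell from 33914 to 905 CPM. The part of doublets or mixed cells in these high cells was not tested beyond the doublet filter.

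Among the mesenchymal-like classes Sftpc ran from 608 CPM in adventitial and 824 CPM in alveolar fibroblast-like cells through 1185 CPM in mesothelial-like and 1960.4 CPM in smooth muscle-like cells to 2055 CPM in the peribronchial or myofibroblast-like class, with overlapping intervals for the last pair. In the last 3 of these classes 2 or 3 cells at 10000 CPM or more held 56.5% (mesothelial-like), 74.0% (smooth muscle-like) and 54.1% (peribronchial or myofibroblast-like) of the Sftpc UMIs. Without such cells Sftpc was at 462 CPM in adventitial, 521 in smooth muscle-like, 527 in mesothelial-like, 765 in alveolar fibroblast-like and 953 CPM in peribronchial or myofibroblast-like cells, so the order of the classes changed. Mesenchymal-like cells gave the level of these transcripts in cells not known to make surfactant. Across the 6457 cells Sftpc stood at 764 CPM (756 to 772), or 0.399% of the AT2-like level. Without 24 cells at 10000 CPM or more it was 544 CPM, or 0.284%, and 96.3% of the remaining 6433 cells had at least 1 Sftpc UMI. These cells carried 4.14 Sftpc UMIs each on average. This number changed little with the depth of the cell. The shallowest of 3 equal groups by depth (median 4146 UMIs) had 3.79 Sftpc UMIs per cell, the middle group (7321 UMIs) had 4.0 and the deepest (10784 UMIs) had 4.63, while the CPM fell from 951 through 549 to 400.2. Over the 12 mesenchymal-like clusters the mean lay between 3.37 and 4.66 UMIs per cell.

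**Figure D3:**
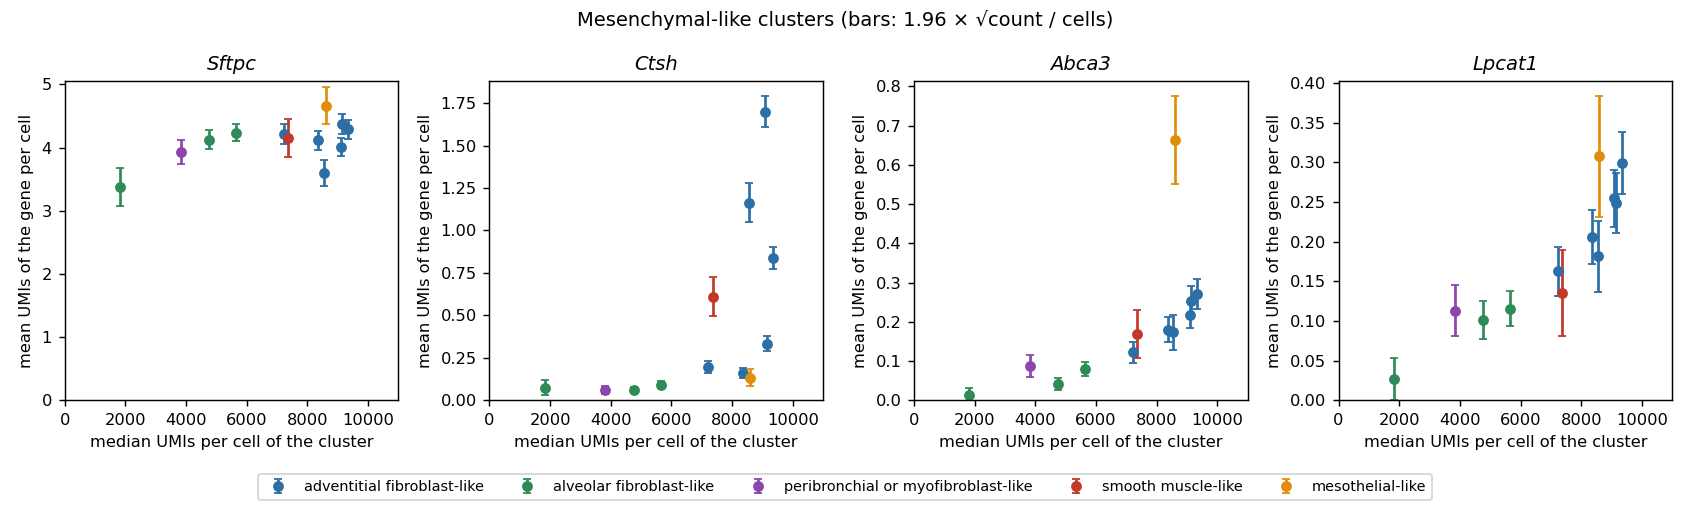
Mean UMIs per cell (y axis) of 4 members in each of the 12 mesenchymal-like clusters, in cells under 10000 CPM of Sftpc, against the median total UMIs of the cluster (x axis); bars are approximate 95% counting intervals, and colours are classes. Sftpc stays between 3.37 and 4.66 UMIs per cell over all depths, Ctsh reaches 1.70 in cluster 2 of the adventitial fibroblast-like class, and Abca3 is highest at 0.663 in mesothelial-like cells.

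Most other members were present in mesenchymal-like cells in the same proportion to Sftpc as in AT2-like cells. For each member the ratio of its UMIs to those of Sftpc was divided by the same ratio in AT2-like cells, so that RNA carried over in AT2 proportions gives 1. In mesenchymal-like cells under 10000 CPM of Sftpc, Lamp3 gave 0.999 (0.872 to 1.14), Sftpd 0.947, Sftpa1 0.922 (0.885 to 0.960), Napsa 0.891 and Sftpb 1.14. Slc34a2 was lower, at 0.638 (0.579 to 0.701). Sftpa1 had a UMI in 29.1% of these cells and Lamp3 in 3.25%, at a median depth of 7320 UMIs. Shares at this level were read as background, not as expression.

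Ctsh, Lpcat1 and Abca3 exceeded this proportion. Ctsh was 23.7 times (22.7 to 24.6), Abca3 8.49 times (7.98 to 9.03) and Lpcat1 5.60 times (5.29 to 5.94) as high as its share relative to Sftpc in AT2-like cells. These 3 of 9 members were the ones at 2 or more. On the same measure 99% of all genes were at 2 or more, since nearly every gene is low relative to Sftpc in AT2-like cells, so a value of 2 or more was the usual one and the other 6 members were below it. From the shallowest to the deepest group, UMIs per cell rose from 0.104 to 0.936 for Ctsh, from 0.0681 to 0.292 for Abca3 and from 0.0960 to 0.304 for Lpcat1. The other members rose less in proportion, such as Sftpc from 3.79 to 4.63 and Slc34a2 from 0.0559 to 0.0854. These groups pooled all mesenchymal-like classes. Adventitial fibroblast-like cells (median 8723.5 UMIs) were deeper than alveolar fibroblast-like cells (5005 UMIs), so depth and class cannot be told apart here.

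The 3 genes differed in which mesenchymal cells held them. Ctsh was highest in the adventitial fibroblast-like clusters 2 (182 CPM), 10 (136 CPM) and 3 (86.6 CPM) and in smooth muscle-like cells (76.5 CPM), and lowest in cluster 4 of the alveolar fibroblast-like class (12.5 CPM), a range of 14.6-fold. The adventitial fibroblast-like cluster 5, of like depth, was at 18.4 CPM, so Ctsh varied within this class. Abca3 was highest in mesothelial-like cells at 75 CPM (63.0 to 88.8), with the next highest cluster at 28.0 CPM. Lpcat1 had a flatter profile, from 13.1 to 34.8 CPM. In the shallowest cluster, number 15 (median 1823 UMIs), Abca3 and Lpcat1 rested on 2 and 4 UMIs and no excess was detectable at this depth.

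**Figure D4:**
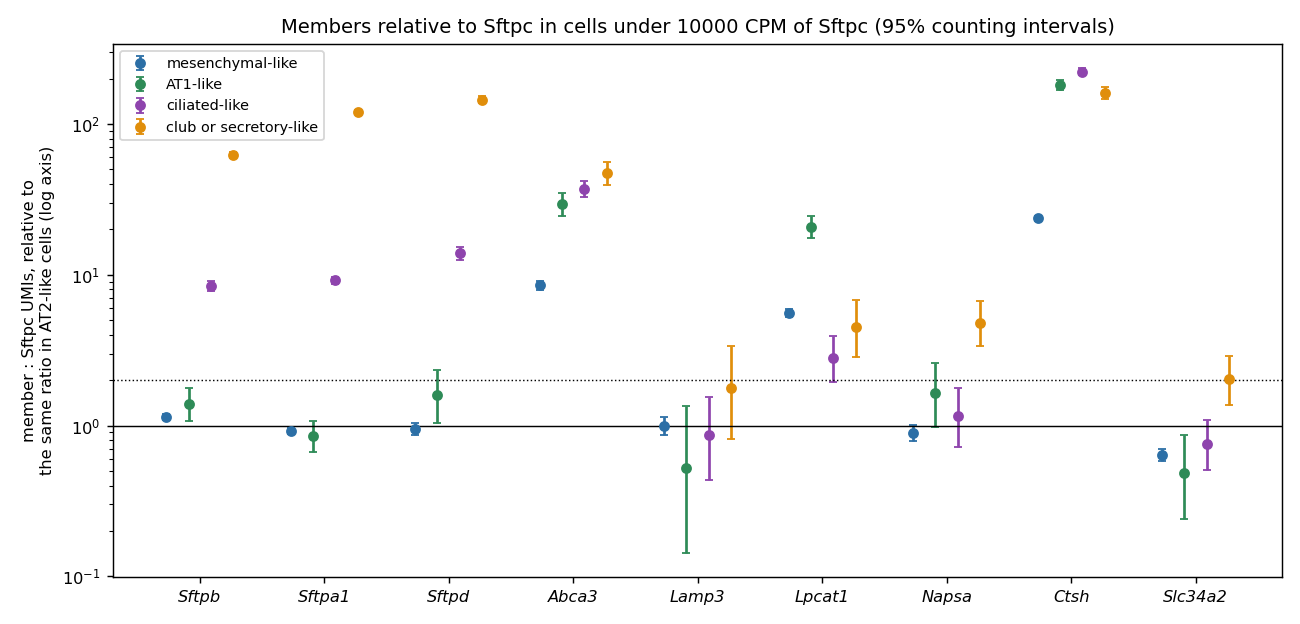
Ratio of each member to Sftpc relative to the same ratio in AT2-like cells (log axis) in cells under 10000 CPM of Sftpc, with 95% counting intervals, for mesenchymal-like, AT1-like, ciliated-like and club or secretory-like cells; the solid line is 1 and the dotted line 2. Sftpa1, Sftpb and Sftpd are far above 1 in club-like cells (120.2, 62.7 and 145) and between 0.850 and 1.59 in mesenchymal-like and AT1-like cells. Ctsh, Abca3 and Lpcat1 are above 2 in all 4, though the interval of Lpcat1 in ciliated-like cells (2.79) starts at 1.93.

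Club-like cells held 3 of the 4 surfactant protein transcripts at a level of their own. In the 63 club-like cells under 10000 CPM of Sftpc, Sftpa1 stood at 3579 CPM (3496 to 3663), 73.0 times the level in mesenchymal-like cells treated alike, although still 19.1% of the AT2-like level. Sftpb was at 992 CPM, 30.8 times the mesenchymal level and 9.96% of the AT2-like level. Sftpd was at 801 CPM, 85.8 times the mesenchymal level and 23.1% of the AT2-like level. Sftpc in the whole club-like class was 7.70 times the level of all mesenchymal-like cells, and keeping cells under the line bounds it in advance. In the kept cells, with a median of 30101 UMIs, it was at 304 CPM, which was 0.560 times the mesenchymal level. Per cell the direction was the other way, with 9.57 Sftpc UMIs against 4.14 in mesenchymal-like cells, whose median depth was 7320 UMIs. A CPM below the mesenchymal one therefore does not show less Sftpc RNA per cell. The 10 club markers summed to 606490 CPM in these club-like cells, which lowers the CPM of every other gene there. The AT2 naming markers summed to 3.08% of their AT2-like level in these cells, with a range of 0 to 9.78% and 10 of 11 detected.

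The airway pattern was shared by nearly all club-like cells rather than by a few. Sftpa1 had a median of 1919.8 CPM per cell, a 10th percentile of 255 CPM and a 90th percentile of 8424 CPM, and the lowest cell was at 18.9 CPM. Sftpd varied less, with a median of 655 CPM and percentiles of 321 and 1517 CPM, and Sftpb had a median of 1045 CPM. Lamp3 (4.54 CPM), Slc34a2 (15.6 CPM), Napsa (17.7 CPM) and Lpcat1 (11.1 CPM) stayed below 1% of their AT2-like levels. Ctsh (240.3 CPM) and Abca3 (70.2 CPM) were 3.81 and 3.11 times the mesenchymal level, and Napsa and Slc34a2 were 3.03 times (2.07 to 4.31) and 1.78 times (1.19 to 2.56) that level. Relative to Sftpc, 8 of 9 members were at 2 or more times their AT2-like share (all genes: 96.6%), and with all 72 club-like cells 5 of 9 were (all genes: 96.4%). The count under the line includes Slc34a2 at 2.03 (1.38 to 2.88), which rested on 31 UMIs, Napsa on 35 UMIs and Lpcat1 on 22 UMIs. With all 72 cells Slc34a2 was at 0.945, Napsa at 1.07 and Lpcat1 at 0.775 on this measure. Lpcat1 was at 0.451 times the mesenchymal level in CPM, but at 0.349 UMIs per cell against 0.188 in the shallower mesenchymal-like cells.

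Ciliated-like cells showed the same 3 transcripts at a lower and less even level. In the 235 cells under 10000 CPM of Sftpc, Sftpa1 was at 415 CPM, Sftpb at 202 CPM and Sftpd at 116 CPM, or 11.6%, 20.3% and 14.5% of the club-like level. These were 8.47, 6.27 and 12.4 times the mesenchymal levels, although the median ciliated-like cell had no UMI of any of the 3. Club cell markers were found in these cells too, at uneven levels. All 10 club markers had UMIs in ciliated-like cells and stood at 0.831% to 54.6% of their club-like level, with a median of 14.7%, and summed to 93712 CPM against 606490 CPM. Scgb1a1, the main club cell secretory protein, was at 87951 CPM or 16.4% of its club-like level, but the median ciliated-like cell had 1916 CPM. Whether the markers and the 3 members lay in the same ciliated-like cells was not tested, nor was the part of club cell RNA in these levels.

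Ctsh and Abca3 did not follow this club pattern in ciliated-like cells. Ctsh was at 504 CPM (479 to 528), 210% of the club-like level, with a median of 524 CPM per cell and a UMI in 99.1% of cells. Abca3 was at 83.9 CPM (74.3 to 94.5), or 120% of the club-like level. Lpcat1 was at 10.4 CPM, below the 24.6 CPM of mesenchymal-like cells. In all, 6 of 9 members were at 2 or more times their Sftpc-scaled level (all genes: 98.7%), and Lamp3, Slc34a2 and Napsa were not.

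AT1-like cells were kept here by low Sftpc, which bounds its level in advance. In the whole class Sftpc was 21.1, Sftpa1 23.3, Sftpb 20.3 and Sftpd 22.5 times the level of all mesenchymal-like cells. Once the 20 cells high in Sftpc were set aside, surfactant protein transcripts were within 1.88 times the level of mesenchymal-like cells treated alike. In the other 189 cells Sftpc was at 608 CPM, Sftpa1 at 50.6 CPM, Sftpb at 43.8 CPM and Sftpd at 17.5 CPM, against 544, 49.0, 32.2 and 9.33 CPM in mesenchymal-like cells. Sftpd at 1.88 times (1.21 to 2.79) and Sftpb at 1.36 times (1.05 to 1.75) the mesenchymal level had intervals above 1. Napsa, on 18 UMIs, was at 2.08 times that level (1.21 to 3.34). Lamp3 (4 UMIs) and Slc34a2 (11 UMIs) were at 0.167% and 0.153% of their AT2-like levels. Ctsh was at 539 CPM (503 to 578), 57.5% of the AT2-like level and 8.56 times the mesenchymal level. Lpcat1 was at 102 CPM (86.8 to 120.1) and Abca3 at 87.0 CPM (72.6 to 103), 4.16 and 3.85 times the mesenchymal level. Lpcat1 was thus higher in AT1-like than in club-like (11.1 CPM) or ciliated-like cells (10.4 CPM), with intervals that did not overlap. The AT2 naming markers in the same 189 cells summed to 0.542%, against 0.397% in mesenchymal-like cells. In all, 3 of 9 members were at 2 or more times the Sftpc-scaled level (all genes: 96.6%).

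AT2-like cells fell into 2 clusters that differed little in most members. Cluster 0 (1075 cells) had leading genes that included Chia1, Areg, Cd74 and H2-Aa, and cluster 8 (580 cells) had Lrg1, Scd1, Bex2 and Fabp5. Ctsh was 1.71 times (1.65 to 1.78) as high in cluster 0, at 1106 against 646 CPM, and was the only member to differ by 1.5-fold or more (10.1% of all genes did in either direction, 6.27% with the higher level in cluster 0). That count was 0 when clusters and values came from separate random parts of the UMIs. It was 10 with the looser cell filter or with predicted doublets kept, where 4 and 3 AT2-like clusters were compared, and 10 when dividing cells were named. Sftpd and Sftpa1 were 1.27 and 1.14 times as high in cluster 0. Abca3 (1.26), Lamp3 (1.25), Lpcat1 (1.24) and Slc34a2 (1.23) were higher in cluster 8. Sftpc differed by a ratio of 1.02. Many of the lipid synthesis genes described below were also higher in cluster 8, 7 of 22 by 1.5-fold or more against 3.85% of all genes, among them Scd1 (2.19), Fabp5 (1.79), Insig1 (1.59) and Fasn (1.57). Of the same list 0 were lower by 1.5-fold, but Chka (0.749, 0.701 to 0.799), Pcyt1a (0.878) and Chpt1 (0.951) were below 1. The median ratio of the list was 1.37, and that of all genes was 0.972.

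Variation between single AT2-like cells was examined in 1579 cells thinned to 5000 UMIs each, leaving out 76 shallower cells. Sftpc had the lowest coefficient of variation (26.3%), followed by Sftpb (29.6%), and Ctsh had the highest (75.1%). Counting error alone gives 3.24%, 14% and 47.0% for these 3 genes at their mean counts, so the high value of Ctsh is partly its low count. Abca3, at 54.6% against 45.9% from counting alone, was the member nearest to counting error.

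**Figure D5:**
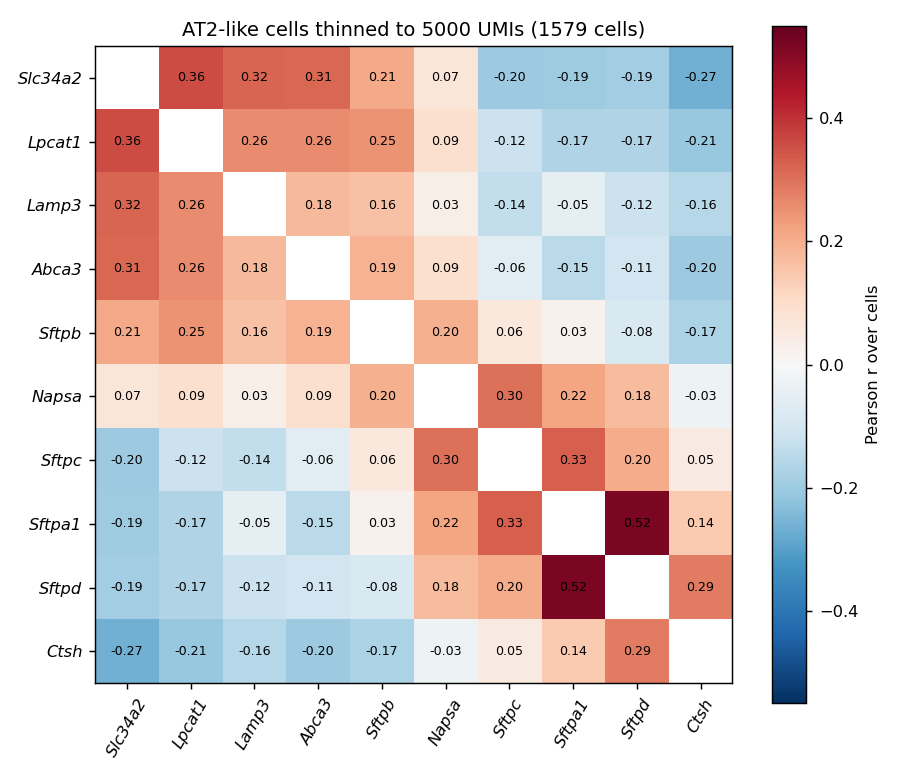
Pearson correlation between members over the 1579 AT2-like cells thinned to 5000 UMIs; red is positive and blue negative, and rows and columns are ordered to place like profiles together. Slc34a2, Lpcat1, Lamp3 and Abca3 form one block of positive values and Sftpc, Sftpa1 and Sftpd another, with negative values between the blocks. Ctsh is positive with the second block (Sftpd 0.29, Sftpa1 0.14, Sftpc 0.05). With the first block Ctsh is negative, and its -0.27 with Slc34a2 is the lowest value.

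Counts of most pairs of members, thinned to 5000 UMIs, were only weakly correlated across AT2-like cells. Counting error alone gave coefficients of variation of 45.9% for Abca3, 35.6% for Lpcat1 and 35.2% for Lamp3. The observed values were 54.6%, 49.2% and 45.5%, whereas for Sftpc counting gave 3.24% of 26.3%. Such error lowers a correlation, so a low value here does not show weak co-expression. Over 45 pairs the correlation ran from -0.27 to 0.52, with a median of 0.06. The highest was between the collectin genes Sftpa1 (chr14:41131782-41136452, plus strand) and Sftpd (chr14:41172214-41185149, minus strand). These lie 35761 bases apart with 1 protein-coding gene between them, the mannose-binding lectin gene Mbl1, which was at only 5.30 CPM in AT2-like cells. Slc34a2 correlated with Lpcat1 (0.36), Lamp3 (0.32) and Abca3 (0.31), Sftpc with Sftpa1 (0.33) and Napsa (0.30), and Ctsh with Sftpd (0.29). Slc34a2 was negatively correlated with Ctsh (-0.27), Sftpc (-0.20), Sftpa1 (-0.19) and Sftpd (-0.19). In 39 of the 45 pairs the sign was the same within cluster 0 and within cluster 8, and Sftpa1 with Sftpd gave 0.52 in the first and 0.44 in the second. All cells share 1 library and a fixed total, in which Sftpc alone takes about 951 of 5000 UMIs, so a higher Sftpc count leaves fewer UMIs for the rest.

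Genes of the steps around surfactant were described from lists chosen with earlier results of these data known. Phospholipid and fatty acid synthesis was the list most clearly higher in AT2-like cells. Of 22 measured genes, 16 were at least 2-fold higher than in other epithelial-like cells and 0 at or below 0.5 (all genes: 11.3% and 24.3%), and 18 of 23 were at least 2-fold higher than in mesenchymal-like cells and 1 lower (all genes: 14.7% and 32.1%). The stearoyl-CoA desaturase Scd1 was at 3018 CPM, 28.7 and 79.4 times the other epithelial and mesenchymal levels, and the fatty acid binding protein Fabp5 was at 1632 CPM, 28.2 and 51.7 times. Fasn, the fatty acid synthase, was 16.3 and 21.3 times as high, named here by its role. Chpt1, which completes phosphatidylcholine synthesis, was an exception at 0.511 and 0.716 times, and Elovl6, a fatty acid elongase, rested on 4 UMIs in AT2-like cells.

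Among lysosome and trafficking genes 6 of 24 were at least 2-fold higher and 3 lower than in other epithelial-like cells (all genes: 11.3% and 24.3%), and 6 higher and 7 lower than in mesenchymal-like cells (all genes: 14.7% and 32.1%). Rab27a, a GTPase of secretory organelles, was 11 times and the protease Ctsc 15.7 times as high in AT2-like cells, while the protease Ctsl was at 0.357 and Psap, the precursor of the saposins, at 0.209 times. Of 17 genes for folding and processing of proSP-B and proSP-C, 2 were higher and 2 lower than in other epithelial-like cells (all genes: 11.3% and 24.3%). Ern1, a sensor of unfolded protein, was at 2.12 times and the ubiquitin ligase Nedd4l at 1.86 times, whereas the lectin Erlec1 (0.484) and Itm2b (0.461) were lower. Against mesenchymal-like cells 8 of these 17 were lower (all genes: 32.1%), a number that fell to 3 when the members' own UMIs were left out of the totals.

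Of 18 transcription factors of the distal epithelium, 6 were at least 2-fold higher and 1 lower than in other epithelial-like cells (all genes: 11.3% and 24.3%), and 9 higher and 5 lower than in mesenchymal-like cells (all genes: 14.7% and 32.1%). Nkx2-1, named by its role, did not separate the alveolar classes, at 315 CPM in AT2-like, 358 in AT1-like, 146 in ciliated-like and 56.1 in club-like cells, against 2.48 in mesenchymal-like cells. The club-like value is lowered by Scgb1a1, which alone took 535614 CPM in the club-like cells under the Sftpc line. Cebpa, a regulator of lung maturation, was 7.12 times and Elf5 4.35 times as high in AT2-like as in other epithelial-like cells. Foxa1 was 183 times as high as in mesenchymal-like cells but 1.36 times as high as in other epithelial-like cells. Sox9 rested on 6 UMIs in AT2-like cells, and Nfib was at 0.786 and 0.155 times the 2 levels.

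Among receptors and channels of surfactant turnover, 3 of 11 were higher and 4 lower than in other epithelial-like cells (all genes: 11.3% and 24.3%), and 9 of 12 were higher and 1 lower than in mesenchymal-like cells (all genes: 14.7% and 32.1%). The adhesion receptor Adgrf5, known to restrain the surfactant pool, was 6.12 and 63.0 times as high. The sodium channel subunit Scnn1b was 67.5 times the mesenchymal level but 0.185 times that of the other epithelial-like cells, with 297 CPM in AT1-like cells. Csf2ra, a GM-CSF receptor subunit, was at 6.79 CPM and Pparg at 1.68 CPM in AT2-like cells. Beside SP-A and SP-D, 8 other lectins were listed. Of 5 measured, 2 were higher and 2 lower than in other epithelial-like cells (all genes: 11.3% and 24.3%). Lgals9 was 4.55 times as high, Lgals1 (0.187) and the scavenger collectin Colec12 (0.107) were lower, Lgals3 was at 0.507 times, and Colec11 rested on 2 UMIs in AT2-like cells.

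Among the 10 genes whose profile over the 22 clusters was most like the mean profile of the members were Cxcl15 (Pearson r = 0.99), Sfta2 (0.98), Chil1 (0.98), Hc (0.98), Slco4c1 (0.98), Mlc1 (0.97), S100g (0.97), Pla2g1b (0.97) and Lgi3 (0.97), of 12880 genes ranked. Cxcl15, Chil1, Hc, S100g and Lgi3 were also naming markers of the class. Among the members themselves Slc34a2 was closest to the mean profile (0.99) and Ctsh farthest from it (0.81).

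Values of the same genes in the authors' deposited table, with the authors' own cluster numbers, were read beside these. In the authors' deposited table Sftpc had its highest mean counts in clusters 5 (1504) and 4 (1201), followed by cluster 14 (772). In the authors' deposited table that cluster 14 also had mean counts of 17 for the fibroblast gene Dcn and 11.7 for Inmt. In the authors' deposited table the cluster with the most Scgb1a1 (number 8, mean count 3184) had mean counts of 19.3 for Sftpa1, 9.47 for Sftpb, 5.15 for Sftpd and 77.7 for Sftpc. In the authors' deposited table the log2 fold change of Ctsh was 0.77 (adjusted p = 0.105) in cluster 13, which has the most of the ciliary regulator Foxj1, and 1.08 (adjusted p = 0.215) in cluster 16, which has the most of the AT1 gene Ager. In the authors' deposited table the log2 fold changes of Sftpc in those clusters were -2.49 (adjusted p = 2.74e-05) and -1.13 (adjusted p = 0.517).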

How the data were processed

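Per the submitters' processing notes, reads were processed with Cell Ranger 3.0.0 and the mouse build was mm10. The values deposited are unnormalised UMI counts, 85746976 over 11118 barcodes. No source used here gives the annotation release. For 17 clusters the authors' own table lists, per the file headers, mean counts, log2 fold changes and adjusted p-values. How these were scaled, and which cells each cluster was compared with, no source used here gives. The deposited run summary gives the sequencing saturation as a percent (51%).

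Cell filters required 500 genes and no more than 10% mitochondrial UMIs, which 9391 barcodes passed, Scrublet removed 458 predicted doublets (4.88%), and 30 principal components of 2000 variable genes, 15 neighbours and Leiden resolution 1 gave the clusters (scanpy 1.11.5, leidenalg 0.10.2, scikit-learn 1.9.0, numpy 2.4.6, scipy 1.17.1, Python 3.11.15, seed 0). Variable genes left out the members, the 6 related lists (103 genes), mitochondrial, ribosomal and reporter genes. Clusters were named from 19 marker lists, needing at least 3 markers with a UMI in 25% of cells. The genes that leave a cluster of dividing or striated muscle cells unnamed, and the Sftpc line at 10000 CPM, were chosen after seeing the data. The members and lists were chosen with earlier results of these data known.

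Class sums of UMIs were scaled to CPM. Intervals of CPM are exact Poisson and those of ratios exact conditional binomial. Genes with at least 30 UMIs over both classes were counted as higher from a ratio of 2 and as lower from 0.5 downward. Named were all members, the 2 highest and 2 lowest genes of each list by AT2-like over mesenchymal-like ratio among those with at least 100 UMIs, each lectin with at least 100 UMIs, the 10 genes most like the members by Pearson correlation of log2(CPM + 1) over clusters, and examples by role; some genes under this rule are not reported here. On simulated counts with 200 changed genes the ratio calls were checked. Positions are from GENCODE M21 (mm10). Alternatives covered the filters, doublets, resolution, clustering genes, scaling, minimum counts and separate random parts of the UMIs.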

Additional observations from a re-analysis of the deposited data

How the results depend on the processing

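All 10 members were highest in AT2-like cells under every alternative run. The 20 ratios of single members (AT2-like over other epithelial-like and over mesenchymal-like) stayed above 1 in all 190 recomputed values and at 2 or more in 187; the other 3 were Ctsh over other epithelial-like cells, at 1.81 with equal weight per cell, 1.93 with predicted doublets kept and 1.83 with clusters and values from separate random parts of the UMIs. Their size moved more: over the alternatives Sftpb ran from 10.1 to 23.7 and Slc34a2 from 18.5 to 44.7 over other epithelial-like cells, and Sftpb from 94.1 to 309.6, Sftpc from 98.0 to 352 and Slc34a2 from 122 to 552 over mesenchymal-like cells. Of the results that answer a comparison, 333 recomputed values kept their call, 38 moved and 0 reversed, and the cause was not tested where none is named. Of the recomputed ratios of single members, between classes or relative to Sftpc, 416 moved and 107 did not. In ciliated-like cells as a whole the Sftpc-scaled ratio ran from 10.5 to 76.5 for Ctsh and from 2.51 to 12.6 for Abca3. Sftpc in mesenchymal-like cells as a percent of AT2-like (0.399) was 0.305 with the members' UMIs left out of the totals, 0.430 with equal weight per cell, 1.02 with predicted doublets kept, 0.412 at resolution 0.5, 0.388 with separate parts, 0.425 when dividing and striated muscle clusters were named (an alternative added after seeing the data) and 0.284 without cells at 10000 CPM or more of Sftpc (also added). Over whole classes, members at 2 or more times the Sftpc-scaled level numbered 5 of 9 in club-like cells (3 with separate parts; all genes 96.4%) and 5 of 9 in ciliated-like cells (3 with equal weight per cell, 2 with the looser cell filter of 200 genes and 20% mitochondrial UMIs, 2 with doublets kept; all genes 98.5%). Under the Sftpc line the counts were the same with the line at 5000 CPM, and at 20000 CPM the club-like count was 7 rather than 8. Members differing 1.5-fold between AT2-like clusters (1) numbered 10 with the looser filter, 10 with doublets kept and 10 with dividing cells named, with 4 AT2-like clusters compared in the first of these and 3 in the second, and 0 with separate parts; resolution 0.5 gave 1 AT2-like cluster and so no value. Counts of list genes also moved. Against other epithelial-like cells, lower phospholipid genes (0) numbered 1 with equal weight per cell, 1 with no minimum, 1 with the looser filter and 1 with doublets kept, and lower lysosome genes (3) numbered 5 with equal weight per cell. Higher folding genes (2) numbered 4 without the members' UMIs, 0 with equal weight per cell, 0 with doublets kept and 1 with separate parts, and lower folding genes (2) numbered 0, 1 and 0 without the members' UMIs, with dividing cells named and with doublets kept. Lower transcription factors (1) numbered 0 at a minimum of 100 UMIs and 0 with separate parts, lower homeostasis genes (4) numbered 7 with equal weight per cell, higher lectins (2) numbered 1 at 100 UMIs and lower lectins (2) numbered 1 with dividing cells named and 1 with doublets kept. Against mesenchymal-like cells, leaving the members' UMIs out of the totals gave 4 lower lysosome genes (7), 3 lower folding genes (8) and 2 higher lectins (1), and a minimum of 100 UMIs gave 0 lower homeostasis genes (1) and 0 higher lectins (1). No paired analysis was possible because the 4 samples form 1 group and cells could not be assigned to them, and for the same reason no replicate could be left out. Classes of 66 to 238 cells limit what depth can show: members with under about 30 UMIs there have wide intervals.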

Other observations

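Cells that were left unnamed also carried the members. Cluster 17, with 75 cells whose leading genes combined those of AT2 cells and alveolar fibroblasts, had 109181 CPM of Sftpc at a median of 14157 UMIs, and Lamp3 stood there at 1.05 and Abca3 at 1.07 times its Sftpc-scaled level. Cluster 20, with 41 cells led by cell division genes, had 57514 CPM of Sftpc and 5776 CPM of Sftpa1, with Ctsh at 1.52 and Abca3 at 0.646 times the Sftpc-scaled level. Cluster 16, with 91 cells led by leukocyte genes although CD45-positive cells were sorted away, had 6534 CPM of Sftpc and Ctsh at 6.87 times the Sftpc-scaled level.

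Barcodes removed for having under 500 genes (1296 barcodes, median 696.5 UMIs) had Sftpc at 18302 CPM, Sftpa1 at 1511 CPM and Ctsh at 129.7 CPM. The 431 barcodes with at least 500 genes that were removed for over 10% mitochondrial UMIs had Sftpc at 44643 CPM and Abca3 at 427 CPM.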
